A study of Mus musculus with 8 samples.

Results

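The genes described here serve lactate transport or lactate formation, or are relatives of genes that do. They are 5 carriers of the Slc16 family (Slc16a3, Slc16a1, Slc16a7, Slc16a6 and Slc16a10), the carrier chaperones Bsg and Emb, and the lactate dehydrogenases Ldha and Ldhb. They were found by symbol and are 9 of the 26642 rows of the deposited table. Messenger RNA was sequenced from 4 libraries of CT26 cells in which Tead1 and Tead4 had been knocked out and from 4 libraries of WT CT26 cells. CT26 is a mouse colon carcinoma line, and both genotypes were grown in RPMI medium with serum. Tead1 and Tead4 both encode transcription factors through which the Hippo pathway cofactors YAP and TAZ reach DNA. Whether the knockout cells are 1 clone or a pool, and whether replicates are separate cultures, is not given in the labels. The p-values below therefore rest on library-to-library spread alone, and that spread may be technical. Slc16a3 was chosen for its low level in the knockout libraries and the others as its relatives, with results of the same comparison known. The differences between genotypes of these 9 genes are therefore a description, and no p-value is given for them.

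Lactate is made from pyruvate by lactate dehydrogenase, a tetramer of A subunits (Ldha) and B subunits (Ldhb), at the end of glycolysis. It crosses the plasma membrane together with a proton through monocarboxylate transporters (MCTs). MCT1, encoded by Slc16a1, is widespread and carries lactate in or out, whereas MCT4, encoded by Slc16a3, is known as an exporter in strongly glycolytic cells and as a hypoxia-inducible gene. Both need the immunoglobulin-family protein basigin (Bsg, also CD147) to reach the cell surface. MCT2 (Slc16a7) is a carrier of high affinity that pairs with embigin (Emb).

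Total counts per library lay between 29679405 and 32774905. Levels are CPM, counts scaled to a common library size with trimmed-mean (TMM) factors, as mean ± SD over the 4 libraries of a genotype. Each log2 fold change is that of the knockout over WT and has its standard error (SE) beside it. A count above 0 was found in 14345 rows of knockout replicate 1 and in 17759 to 17948 rows of the other knockout libraries, against 14566 to 15430 in WT. By this measure knockout replicate 1 stands apart from the other knockout libraries. Of the 6 genes of the TEAD family and its cofactors, 2 fell and 1 rose at an adjusted p under 0.05. At that threshold 20.6% of all rows tested fell and 20.9% rose. Tead1 was at 51.2 to 77.8 CPM in the knockout libraries and at 142 to 319 CPM in WT (log2 fold change -1.61, SE 0.27, edgeR adjusted p = 0.00217). Tead4 was at 23.3 to 37.0 CPM against 36.7 to 63.2 CPM (-0.71, SE 0.22, edgeR adjusted p = 0.0261), a call that was lost without knockout replicate 2 or 3 or WT replicate 1 or 4, and with upper-quartile factors. Yap1 was at 191 ± 15.4 CPM in the knockout libraries and 122 ± 12.0 CPM in WT (edgeR adjusted p = 0.00507). The counts cover whole genes, so they do not measure the loss of either TEAD protein.

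The cells had few epithelial transcripts in either genotype. Of 13 colon epithelial markers, Epcam was at 0 in all 8 libraries and Cdh1 did not exceed 0.153 CPM. The list summed to 106 to 143 CPM in the knockout libraries and 57.0 to 107 CPM in WT, most of it Krt18 and Krt20. The 13 mesenchymal markers summed to 6513 to 6873 CPM against 5349 to 6750 CPM in WT, led by Vim and Col1a2. The 11 leukocyte markers summed to 10.6 to 17.0 CPM against 1.79 to 4.12 CPM, mostly Cd68, with Cd3e and Adgre1 at 0 throughout. The 5 endothelial markers summed to 1.30 to 11.1 CPM against at most 0.438 CPM in WT, nearly all Vwf, with Kdr at 0. The 7 muscle and red-cell markers summed to at most 0.609 CPM in the knockout libraries and 0.368 CPM in WT. The part of these differences in the results below was not tested. In such bulk samples, fewer cells that express a gene and less of its RNA per cell cannot be told apart.

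Slc16a3 (ENSMUSG00000025161; GRCm38 chromosome 11, 120948480 to 120960868, plus strand), the MCT4 gene, was almost lost from the knockout libraries. The counts were 64, 44, 35 and 44 in knockout replicates 1 to 4, against 1187, 1455, 1966 and 1584 in WT replicates 1 to 4. On the CPM scale the knockout libraries stood at 2.02, 1.34, 1.02 and 1.34, and the WT libraries at 43.7, 49.7, 66.2 and 56.2. All 4 knockout values lay far below the lowest WT value, and the spread within each genotype was small beside the gap. The means were 1.43 ± 0.423 CPM in the knockout libraries and 54.0 ± 9.66 CPM in WT (SD, n = 4 each), a log2 fold change of -5.24 (SE 0.25), or 37.7-fold lower. Each knockout library still held more than the 3 counts taken here as the floor of detection, so the transcript was reduced and not absent. Slc16a3 ranked 14 of 13265 rows by the size of its negative fold change, and 15 rows, or 0.113%, had a log2 fold change of -5 or below.

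**Figure D1:**
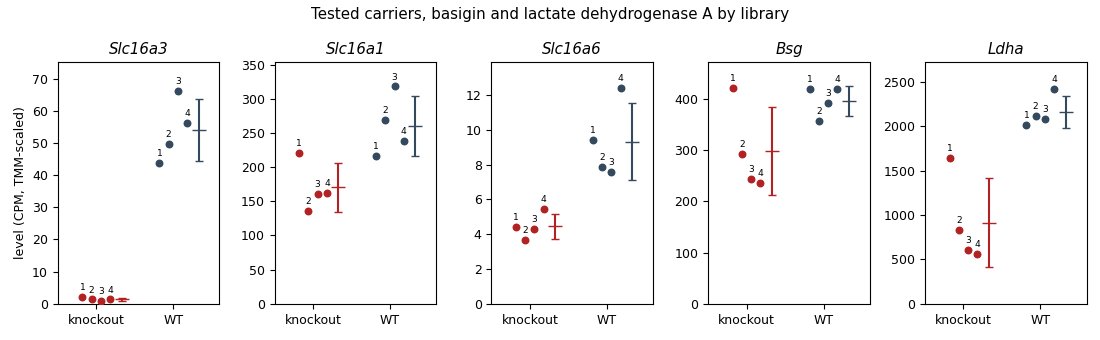
Level in TMM-scaled CPM (vertical axes, from 0) of the 5 carrier, chaperone and dehydrogenase genes with enough counts to be tested, in each knockout library (red, left) and each WT library (dark, right). Digits are replicate numbers and bars are mean ± SD; Slc16a3 was at 1.02 to 2.02 CPM in the knockout libraries and 43.7 to 66.2 CPM in WT, while knockout replicate 1 lay within or near the WT values for Slc16a1, Bsg and Ldha.

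Slc16a1 (ENSMUSG00000032902; chromosome 3, 104638668 to 104658462, plus strand), the MCT1 gene, was the most abundant Slc16 carrier per length in both genotypes. Its level was 221, 136, 161 and 163 CPM in knockout replicates 1 to 4, against 217, 269, 318 and 238 CPM in WT replicates 1 to 4. Knockout replicate 1 lay just above the lowest WT library and the other 3 knockout libraries lay below all WT libraries. The means were 170 ± 36.1 CPM in the knockout libraries and 261 ± 43.9 CPM in WT, a log2 fold change of -0.61 (SE 0.19). Whether this difference passed the threshold of the fit over all rows depended on single libraries and on the scaling, as it was lost in 8 of 16 alternatives, among them the fits without knockout replicate 2, 3 or 4 or WT replicate 2 or 3.

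Promoter sequence is shown for the pair of transporter genes whose levels parted and for Ldha, from RefSeq (GRCm38.p6), which held an entry for 6 of the 9 genes. Each run is the 250 bases before a start site, 5′ to 3′ on the strand of the gene, at chr11:120948817-120949066 for Slc16a3, chr3:104638414-104638663 for Slc16a1 and chr7:46845554-46845803 for Ldha, all on the plus strand. Capitals mark ACGTG on either strand, the core of the hypoxia response element, or CACGTG, the E-box bound by MYC and MAX, which holds ACGTG on both strands.
Slc16a3: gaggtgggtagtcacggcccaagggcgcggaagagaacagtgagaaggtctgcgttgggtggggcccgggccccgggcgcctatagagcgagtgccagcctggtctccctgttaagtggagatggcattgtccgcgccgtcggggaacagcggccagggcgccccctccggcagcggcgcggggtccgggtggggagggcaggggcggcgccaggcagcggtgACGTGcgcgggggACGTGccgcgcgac
Slc16a1: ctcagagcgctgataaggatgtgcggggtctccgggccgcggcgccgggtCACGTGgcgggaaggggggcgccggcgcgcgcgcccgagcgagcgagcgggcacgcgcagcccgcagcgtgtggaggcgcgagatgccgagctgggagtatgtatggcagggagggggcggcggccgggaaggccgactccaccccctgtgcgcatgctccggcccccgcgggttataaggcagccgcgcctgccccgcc
Ldha: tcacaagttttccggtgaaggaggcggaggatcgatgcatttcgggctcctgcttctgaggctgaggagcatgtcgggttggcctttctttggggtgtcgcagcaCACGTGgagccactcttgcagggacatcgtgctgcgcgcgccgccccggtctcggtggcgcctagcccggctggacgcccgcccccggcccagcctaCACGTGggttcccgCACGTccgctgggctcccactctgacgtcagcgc
The Slc16a3 window held ACGTG at 27 to 23 and at 14 to 10 bases before the start and no E-box. The Slc16a1 window held 1 E-box, 200 to 195 bases before the start, and the Ldha window printed here held 2, at 145 to 140 and 48 to 43 bases, with a further ACGTG at 34 to 30 bases. RefSeq has a second Ldha start, whose window (chr7:46846832-46847081, not printed) held none of these letters, and neither did the windows of Ldhb, Slc16a10 and Emb. Among 32851 promoter windows of this length, 16.6% held ACGTG and 6.02% held CACGTG. The letters GGAATG, a core of the TEAD motif, were found on neither strand in the windows of these genes, against 12.6% of all windows. The GENCODE genes Slc16a3, Ldha and Emb begin before their windows, at 120948480, 46841475 and 117208536. The bases before those gene starts were not examined. A match is a description of the letters and not of binding.

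The balance of MCT4 to MCT1 transcripts was read within each library, where no scaling between libraries enters. The ratio of Slc16a3 to Slc16a1 counts was 0.00914, 0.00985, 0.00632 and 0.00826 in knockout replicates 1 to 4, against 0.201, 0.185, 0.208 and 0.236 in WT replicates 1 to 4. The means were 0.00839 ± 0.00153 and 0.208 ± 0.0213, so the WT ratio was 24.7 times the knockout ratio. Knockout replicate 1, which was close to WT for Slc16a1, had a ratio among those of the other knockout libraries. Relative to basigin, Slc16a1 differed less than it varied within a genotype: the ratio of Slc16a1 to Bsg counts was 0.586 ± 0.109 in the knockout libraries and 0.663 ± 0.142 in WT, with overlapping ranges.

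**Figure D2:**
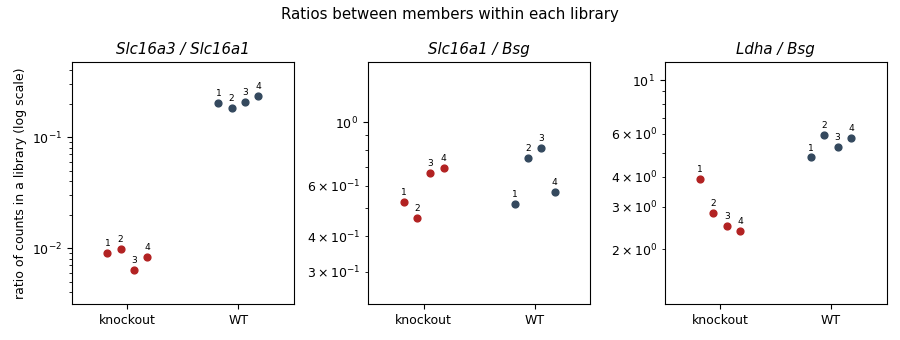
Ratios of counts between pairs of genes within each library (log axes), knockout libraries on the left and WT libraries on the right of each panel, with replicate numbers. The Slc16a3 to Slc16a1 ratio was 0.00632 to 0.00985 in the knockout libraries and 0.185 to 0.236 in WT; the Slc16a1 to Bsg ratios of the genotypes overlap and the Ldha to Bsg ratios do not.

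Slc16a6 (ENSMUSG00000041920; chromosome 11, 109450855 to 109473598, minus strand) encodes MCT7, whose zebrafish relative exports ketone bodies from the liver. It was at 4.42, 3.65, 4.30 and 5.44 CPM in knockout replicates 1 to 4, against 9.42, 7.88, 7.58 and 12.4 CPM in WT replicates 1 to 4. The genotypes did not overlap, and knockout replicate 1 lay among the other knockout libraries. The means were 4.46 ± 0.738 CPM and 9.33 ± 2.22 CPM, a log2 fold change of -1.07 (SE 0.23). Slc16a6 overlaps 1959 bases of Amz2 on the opposite strand, and since no source used here says whether counting used strand, reads of the pair cannot be told apart. Amz2 itself was at 48.9 ± 3.51 CPM in the knockout libraries and 41.5 ± 6.09 CPM in WT, a log2 fold change of 0.24 (edgeR adjusted p = 0.21). Arsg, which overlaps 225 bases of Slc16a6 on the opposite strand, was at 2.04 ± 0.784 CPM against 0.718 ± 0.375 CPM. Amz2 and Arsg were named after their values were seen, and their part in the difference of Slc16a6 was not tested.

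The remaining carriers and the second chaperone were at or near 0 and could not be tested. Slc16a7, the MCT2 gene, had a count of 0 in all 8 libraries, and Emb, which encodes embigin, had 2 counts in knockout replicate 2 and 0 elsewhere. Slc16a10, which encodes an aromatic amino acid carrier (TAT1) rather than a lactate carrier, had counts of 0, 0, 4 and 4 in knockout replicates 1 to 4, against 10, 0, 0 and 0 in WT replicates 1 to 4. At this depth a count of 0 allows up to 3 counts, or 0.0915 to 0.101 CPM before TMM scaling, for counting error only. The transcript of MCT2 was thus at or below that limit in every library. That of embigin, its partner, was so in all libraries but knockout replicate 2, whose 2 counts allow a higher level. Gm17509, which matches 686 bases of Emb, was at 0 in all libraries.

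Bsg (ENSMUSG00000023175; chromosome 10, 79704491 to 79711969, plus strand), the chaperone of MCT1 and MCT4, was below WT in 3 of 4 knockout libraries. It was at 422, 293, 243 and 236 CPM in knockout replicates 1 to 4, against 419, 357, 392 and 419 CPM in WT replicates 1 to 4. Knockout replicate 1 was the highest of all 8 libraries, and the other knockout libraries lay below every WT library. The means were 298 ± 86.0 CPM and 397 ± 29.4 CPM, a log2 fold change of -0.41 (SE 0.20) that did not pass the threshold. Without knockout replicate 1 it was -0.64 and passed. Nptn, which encodes neuroplastin, a close relative of basigin, rose: it was at 213, 241, 244 and 244 CPM in knockout replicates 1 to 4, above the 129 to 171 CPM of the WT libraries (log2 fold change 0.67, SE 0.14, edgeR adjusted p = 0.00538).

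Ldha (ENSMUSG00000063229; chromosome 7, 46841475 to 46855627, plus strand), the subunit that favours lactate formation, was lower in all knockout libraries, but unevenly. It was at 1643, 830, 610 and 562 CPM in knockout replicates 1 to 4, against 2010, 2117, 2079 and 2416 CPM in WT replicates 1 to 4. The genotypes did not overlap, although knockout replicate 1 was nearer to WT than to the other knockout libraries. The means were 911 ± 502 CPM and 2156 ± 179 CPM, a log2 fold change of -1.24 (SE 0.33), and -1.71 without knockout replicate 1. As a share of the WT mean, Ldha reached 76.2% in knockout replicate 1 and 26.1% to 38.5% in the others, whereas Slc16a3 stood at 3.75% and 1.89% to 2.49%. The ratio of Ldha to Bsg counts was 2.91 ± 0.687 in the knockout libraries and 5.45 ± 0.51 in WT, with no overlap. Ldha has 4 processed pseudogenes that match its transcript over at least 200 bases at 95% identity or more, and the handling of reads shared with them is unknown, so its level is uncertain to that extent.

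Ldhb, the heart-type subunit that favours lactate use, had a count of 0 in all 8 libraries, so the dehydrogenase transcripts were of the A type in both genotypes as far as this depth shows. A processed pseudogene (Gm5514) matches 1002 bases of Ldhb, and reads lost to such a copy would not be seen here. Of the other dehydrogenase genes, Ldhc, the testis form, had a count above 0 in knockout replicate 3 only, and Ldhd, which uses D-lactate, did not exceed 0.378 CPM.

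**Figure D3:**
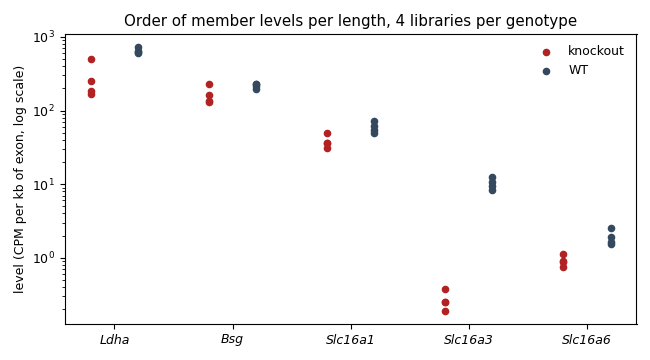
Level per length in CPM per kilobase of exon (log axis) of the 5 tested genes, knockout libraries (red) left of WT libraries (dark), 4 points each. Ldha is at the top in both genotypes, and Slc16a3 is above Slc16a6 in WT and below it in the knockout libraries.

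Levels of different genes were compared per kilobase of exon. Ldha was at 275 ± 152 CPM per kb in the knockout libraries and 651 ± 54.2 CPM per kb in WT, and Bsg was at 164.5 ± 47.4 and 219 ± 16.2 CPM per kb. In the knockout libraries the values of Ldha (169.9 to 496) and Bsg (130.0 to 232) overlapped across libraries, chiefly through knockout replicate 1, but Ldha lay above Bsg within each of the 4 libraries. In WT the ranges were apart. Slc16a1 followed at 38.5 ± 8.15 and 58.9 ± 9.92 CPM per kb. Slc16a3 was at 0.269 ± 0.0795 CPM per kb in the knockout libraries, under the 0.912 ± 0.151 of Slc16a6, and at 10.1 ± 1.82 CPM per kb in WT, above the 1.91 ± 0.454 of Slc16a6. Neither pair of values overlapped, so the order of these carriers, as counted, was opposite in the genotypes. Reads of Slc16a6 and Amz2 cannot be told apart where the genes overlap. The order in the knockout libraries is uncertain to that extent. Slc16a3 made up 0.51% to 0.794% of the summed level per kb of the 5 carriers in the knockout libraries and 13.0% to 15.8% in WT.

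Of the 9 genes, 5 had enough counts to be tested, and 4 of these were called lower in the knockout libraries at an adjusted p under 0.05 and none higher (Slc16a3, Slc16a1, Slc16a6 and Ldha). Over all 13265 rows tested, 20.6% were called lower, 20.9% higher and 41.6% in either direction. With upper-quartile scaling, 64.6% of all calls were higher in the knockout libraries, against 50.4% with TMM factors, and the median over all rows was a log2 fold change of 0.20 in place of 0.02. The median log2 fold change of the 5 tested genes was -1.07. For 3 of them every knockout value lay below every WT value, as did 19.6% of all rows. All knockout values lay above all WT values in 21.1% of rows, and the genotypes did not overlap in 40.7%. Since the genes were chosen from this comparison, nothing is read from these counts.

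The steps of glucose uptake and glycolysis that feed Ldha were lower in part. Of the 18 genes listed, 17 rows were tested (Aldoa has 2 rows), of which 7 fell and 1 rose. Over all rows tested, 20.6% fell and 20.9% rose. The median log2 fold change of the list was -0.61, beside 0.02 over all rows. Pfkl, the liver-type phosphofructokinase, was at 74.3 ± 24.8 CPM in the knockout libraries and 176 ± 19.6 CPM in WT (log2 fold change -1.24, SE 0.22, edgeR adjusted p = 0.00263). Hk2, a hexokinase of glycolytic tumour cells, was at 54.6 ± 9.57 CPM against 85.6 ± 7.98 CPM (-0.65, edgeR adjusted p = 0.0107). Gapdh fell too, to 17.7 to 56.6 CPM against 38.3 to 279 CPM (-2.25, edgeR adjusted p = 0.0105), but 90 other annotated genes match its transcript, so its level is uncertain. The increase was Eno2, the neuronal enolase, at 57.8 ± 7.39 CPM against 22.1 ± 7.33 CPM (1.39, SE 0.24, edgeR adjusted p = 0.0024).

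The other decreases, named after their values were seen, were Pgam1, Eno1, Slc2a1, which encodes the glucose transporter GLUT1, and a short row of 799 bases that also carries the symbol Aldoa. That short row was at 1.51 ± 0.44 CPM in the knockout libraries and 3.09 ± 1.05 CPM in WT. The other, far more abundant Aldoa row was at 565 ± 221 CPM against 707 ± 139 CPM. It was not called (log2 fold change -0.32, edgeR adjusted p = 0.354). Eno1, the main enolase, was at 869 ± 444 CPM in the knockout libraries and 1789 ± 175 CPM in WT (log2 fold change -1.04, edgeR adjusted p = 0.0235), a call lost without knockout replicate 2, 3 or 4. Slc2a1 was at 74.1 ± 4.99 CPM against 98.1 ± 12.1 CPM (-0.41, edgeR adjusted p = 0.0348), a call lost without knockout replicate 2, 3 or 4 or WT replicate 1 or 4 and with upper-quartile factors. Pkm, the pyruvate kinase, had 3187, 2060, 1201 and 1077 CPM in knockout replicates 1 to 4, against 3075 to 3279 CPM in WT, and did not pass (-0.75, edgeR adjusted p = 0.094). Other annotated genes match the transcripts of Eno1 (3 genes), Pkm (2) and Pgam1 (1), and those of Pgk1 (4) and Tpi1 (1), given below. The levels of these genes are thus uncertain too. The count of decreases depended on knockout libraries. It was 11 without knockout replicate 1 and 4 without knockout replicate 2, 3 or 4, and with upper-quartile factors 5 rows were lower and 3 higher.

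**Figure D4:**
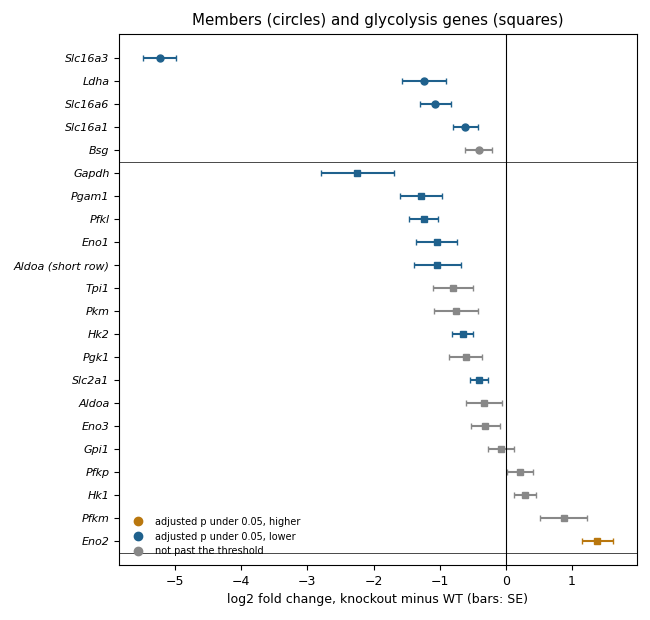
Log2 fold change, knockout minus WT, with its standard error (horizontal bars) for the tested carrier, chaperone and dehydrogenase genes (circles) and the tested glycolysis rows (squares). Colour gives the call of the fit over all rows; Slc16a3 lies at -5.24, beyond every other row drawn, and Ldha at -1.24 lies among the glycolysis genes.

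Among the knockout libraries, replicate 1 ranked highest for 13 of the 17 glycolysis rows and for 4 of the 5 tested carrier, chaperone and dehydrogenase genes, all but Slc16a6. Over all rows tested it was the highest for 40.9%, and over all rows called lower for 71.3%. It was at or above the lowest WT library for 11 of the 17 glycolysis rows (64.7%), and for Bsg and Slc16a1. Over all rows tested, which include rows that rose, this share was 68.0%. Among all rows called lower it was 12.5%, and among the 7 glycolysis rows called lower it was 14.3%. Knockout replicate 1 was near the WT mean for Tpi1, Pgk1 and Pkm, examples chosen after their values were seen. They were at 102%, 102% and 101% of the WT mean in this library and at 34.0% to 65.0% in the other knockout libraries. Slc16a3, at 3.75% of the WT mean in this library, did not share that nearness to WT. The cause of the difference between knockout libraries was not tested.

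**Figure D5:**
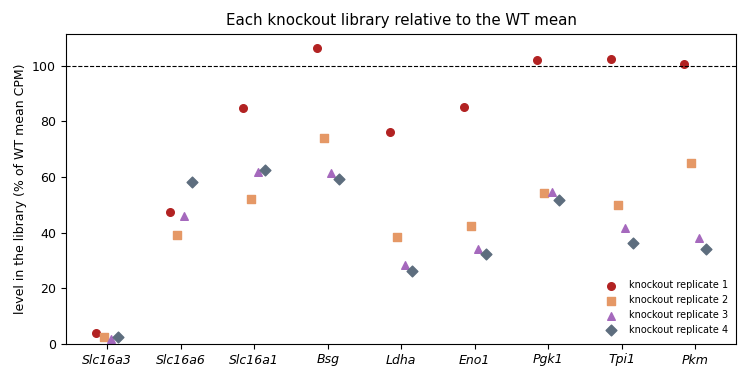
Level of 9 genes in each knockout library as a percentage of the WT mean CPM (dashed line at 100%), one symbol per library. Knockout replicate 1 (circles) is at 76.2% of the WT mean for Ldha and 3.75% for Slc16a3.

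Beyond the genes chosen, other monocarboxylate carriers gave no call in the main fit. Of 11 listed, 5 were tested, and edgeR called none, with 2 at an unadjusted p under 0.05. Among all rows tested, edgeR called 41.6%. DESeq2 called 2 of the 5 carriers and limma-voom 1. Without knockout replicate 1 edgeR called 2 of them higher, and without WT replicate 4 it called 1. The most abundant was Slc16a13 (MCT13), at 46.1 ± 5.10 CPM in the knockout libraries and 31.9 ± 8.67 CPM in WT (log2 fold change 0.53, SE 0.20, edgeR adjusted p = 0.0511). Slc16a8, the MCT3 gene of retinal pigment epithelium, was at 1.21 ± 0.453 CPM against 0.529 ± 0.165 CPM (1.19, SE 0.44, edgeR adjusted p = 0.051). Slc16a14 and the sodium-coupled carrier Slc5a12 were at 0 in all libraries.

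Genes that take pyruvate into mitochondria and oxidise it gave few calls. Of 13 tested, 1 rose and 1 fell (median log2 fold change -0.21), where 41.6% of all rows tested were called. Pdk2, a kinase that switches off pyruvate dehydrogenase, rose at a low level, to 2.83 ± 1.09 CPM in the knockout libraries against 0.467 ± 0.186 CPM in WT (2.59, SE 0.47, edgeR adjusted p = 0.00298). Pdp2, an opposing phosphatase, fell to 13.2 ± 2.11 CPM against 19.8 ± 4.50 CPM (-0.58, edgeR adjusted p = 0.0446). That call was lost without each of 6 single libraries (knockout replicates 2, 3 and 4 and WT replicates 1, 2 and 3). More abundant kinase and phosphatase genes of the list leaned the other way and did not pass. Pdk3 was at 56.2 ± 22.2 CPM in the knockout libraries and 88.4 ± 15.2 CPM in WT (-0.65, edgeR adjusted p = 0.0609). Pdk1 was at 40.3 ± 4.58 CPM against 47.9 ± 3.53 CPM, and Pdp1 at 35.4 ± 2.99 CPM against 29.6 ± 7.38 CPM. The mitochondrial pyruvate carrier genes did not pass: Mpc1 was at 28.8 ± 6.57 CPM against 33.3 ± 2.06 CPM and Mpc2 at 29.0 ± 8.25 CPM against 19.5 ± 10.6 CPM. Without knockout replicate 1 the count of decreases was 6, Pdk3, Pdhb and Mpc1 among them; Mpc1 and Mpc2 were named after their values were seen.

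Among factors known to act on these genes, 4 of 10 tested fell and 1 rose (median log2 fold change -0.03). Of all rows tested, 41.6% were called in either direction, and the median was 0.02. Hif1a, the oxygen-regulated activator of MCT4 and glycolysis genes, was at 155 ± 6.86 CPM in the knockout libraries and 261 ± 75.4 CPM in WT (-0.75, SE 0.20, edgeR adjusted p = 0.0159). Vhl, which marks its protein for destruction, rose to 38.0 ± 3.34 CPM against 25.2 ± 3.94 CPM (0.59, edgeR adjusted p = 0.0128). Ppargc1b, a coactivator of oxidative metabolism, fell to 2.46 ± 0.37 CPM against 6.51 ± 1.53 CPM (-1.40, edgeR adjusted p = 0.00334). Max, the partner of MYC, was at 45.4 ± 2.44 CPM against 76.6 ± 27.5 CPM (-0.75, edgeR adjusted p = 0.0301), and Myc itself, named after its value was seen, at 101 ± 37.7 CPM against 206 ± 87.3 CPM (-1.03, edgeR adjusted p = 0.0384). The WT libraries differed among themselves here: Max was at 99.2, 49.4, 56.5 and 101 CPM in WT replicates 1 to 4, with replicates 1 and 4 far above the other pair. The decreases numbered 2 without knockout replicate 2 or 3, without WT replicate 1 or 4, and with upper-quartile factors.

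Hypoxia-inducible genes outside glycolysis did not move one way. Of 16 tested, 2 rose and 1 fell, with a median log2 fold change of 0.01, where 41.6% of all rows tested were called. Bnip3l, a mitophagy receptor, was at 110 ± 14.3 CPM in the knockout libraries and 62.8 ± 9.64 CPM in WT (0.80, SE 0.16, edgeR adjusted p = 0.00437). Pfkfb4, a regulator of phosphofructokinase, was at 17.1 ± 1.80 CPM against 9.28 ± 2.51 CPM (0.88, edgeR adjusted p = 0.0109). Car12, a surface carbonic anhydrase, fell to 4.80 ± 3.16 CPM against 13.5 ± 3.05 CPM (-1.49, edgeR adjusted p = 0.0172). With upper-quartile factors or the DESeq2 test, 4 of these genes were called higher, and without WT replicate 3 the decreases numbered 2.

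Of the genes for proton and bicarbonate transport at the membrane, 2 of 7 tested rose and none fell (median log2 fold change 0.25). Over all rows tested, 20.9% rose and 20.6% fell. Slc4a3, an anion exchanger, was at 27.3 ± 3.72 CPM in the knockout libraries and 14.0 ± 5.07 CPM in WT (0.97, SE 0.25, edgeR adjusted p = 0.0141). Hvcn1, a voltage-gated proton channel, was at 2.61 ± 0.24 CPM against 0.136 ± 0.23 CPM (edgeR adjusted p = 0.00608), with a count of 0 in 2 WT libraries. Hcar1, the lactate receptor, was at 0 in all libraries.

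Of the 3 nearest annotated genes with a row in the data on each side of Slc16a3, 1 fell. None of those tested came near the change of Slc16a3, and 20.6% of all rows tested fell. Csnk1d, a casein kinase gene whose end lies 880 bases beyond that of Slc16a3 on the opposite strand, was at 199 ± 9.04 CPM in the knockout libraries and 184 ± 12.0 CPM in WT (log2 fold change 0.12, edgeR adjusted p = 0.46). On the other side, Ccdc57 was at 3.59 ± 0.33 CPM against 3.72 ± 0.835 CPM (-0.05, edgeR adjusted p = 0.891). Fasn, the fatty acid synthase gene 123932 bases away, fell (-0.91, SE 0.21, edgeR adjusted p = 0.00755), and Dus1l did not pass (-0.35, edgeR adjusted p = 0.161). Cd7 and Sectm1b, the next genes with a row beyond Csnk1d, were at 0 in all 8 libraries and could not be tested.

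The 5 genes whose profile over the 8 libraries was nearest to that of Slc16a3 were Ank2, Oplah, Runx3, Gpr141 and Ucp2. Likeness was the Euclidean distance between mean-centred log2 CPM profiles among genes whose WT mean reached 10 CPM, and ranged from 1.35 for Ank2 to 3.01 for Ucp2. All 5 were lower in the knockout libraries, which this measure asks for. Oplah, the 5-oxoprolinase of glutathione turnover, was at 4.85 ± 0.687 CPM in the knockout libraries and 234 ± 116 CPM in WT. The WT values of Oplah ran from 117 to 375 CPM, a wider spread than the 43.7 to 66.2 CPM of Slc16a3. None of the 5 lies on chromosome 11.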

How the data were processed

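Messenger RNA of 8 CT26 libraries was sequenced, 4 of each genotype. HISAT2, StringTie and GRCm38 are named in the submitters' processing notes; the sources used here do not give the counting program, its use of strand or its handling of shared reads. The authors deposited raw counts per gene in 2 tables of identical values, of which 1 was used; all 8 of its columns matched a label. In every library a count of 2 was more frequent than a count of 1, as when both mates of a pair are counted, so the floors cover counting error at best.

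Low rows were removed with filterByExpr (at least 10 counts, at least 15 in total). The two-sided main test was edgeR's quasi-likelihood test (version 4.0.16 in R 4.3.3) on TMM-scaled counts, with genotype as the one term. Benjamini-Hochberg adjustment ran over the 13265 rows tested, and a call is an adjusted p under 0.05. It was checked on simulated data. The SE is the log2 fold change over the square root of F. CPM, and CPM per kb of GENCODE M21 exons, were computed from the counts. Near-identical transcripts were sought with blastn 2.17.0.

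No 2 libraries of a genotype agreed within sampling noise (chi-square per degree of freedom 34.7 to 257). Knockout replicate 1 was at 118 from replicate 2, 257 from replicate 3 and 205 from replicate 4. The pairs among knockout replicates 2, 3 and 4 were at 66.4 to 145. WT replicates 1 and 4 (34.7) and WT replicates 2 and 3 (35.0) were much closer than the other WT pairs (201.5 to 241.5); if such pairs share a culture, the p-values are too small.

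The 9 genes, 9 pathway lists and 5 marker lists were chosen with earlier results of these data known. The text names these genes, the targeted genes and up to 4 members of each list by smallest p. It also names the 3 nearest annotated genes with a row on each side of Slc16a3 and the 5 nearest profiles (pseudocount 0.5 CPM). Any other gene was named after its values were seen, and a few results are not reported here. Alternatives were DESeq2 size factors, upper-quartile factors, no factors, no filter, at least 5 CPM in 4 libraries, the DESeq2 test (1.42.0), limma-voom (3.58.1), a block for the replicate number, and leaving out each library.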

Additional observations from a re-analysis of the deposited data

Results flagged for a closer look

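In 10 of 116 groups of 4 libraries checked, 1 library lay apart from the other 3 by Dixon's criterion for 4 values (the gap to the nearest library over the range of the group); chance marks about 1 group in 20. Knockout replicate 1 was that library in 7 of them. It was high for Pfkl (111 CPM, the other knockout libraries 60.2 to 63.6), Pgk1 (1111 CPM, others 563 to 596), Pdhb (142 CPM, others 88.7 to 91.8) and Pdk3 (89.1 CPM, others 42.3 to 49.5). It was low for Nptn (213 CPM, others 241 to 244), Pdk2 (1.20 CPM, others 3.29 to 3.44) and Slc4a3 (21.8 CPM, others 28.9 to 29.6). For Pfkl, Nptn, Pdk2 and Slc4a3 its level lay between those of the other knockout libraries and the WT mean, and for Pgk1, Pdhb and Pdk3 it lay above the WT mean. The remaining 3 were WT libraries: Slc16a8 was high in WT replicate 1 (0.773 CPM, others 0.410 to 0.472), Hvcn1 was high in WT replicate 2 (0.478 CPM, others 0 to 0.0674) and Csnk1d was low in WT replicate 2 (166 CPM, others 189.9 to 190.1). Of the lactate transport and dehydrogenase genes, the 5 with enough counts to be tested were checked and none was marked. The others were not checked; of these, Slc16a10 had its WT counts in replicate 1 alone (10) and Emb its knockout counts in replicate 2 alone (2).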

How the results depend on the processing

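No value changed sign under the 16 alternatives for Slc16a3, Slc16a1, Slc16a6, Bsg and Ldha, which is a description, since the genes were chosen on this comparison. The call of Slc16a1 was lost with upper-quartile factors (-0.449), library size only (-0.452) and the replicate block (-0.623), and without each of 5 single libraries. Upper-quartile factors called 17 genes of the pathway lists higher and 9 lower, and library size only 16 and 9, against 10 and 15 with TMM factors. By list, upper-quartile factors called 3 glycolysis rows, 4 hypoxia genes, 2 regulators and 2 other carriers higher (1, 2, 1 and 0 with TMM), and 2 regulators, 1 targeted gene and 0 pyruvate genes lower (4, 2 and 1 with TMM). Library size only did the same, but for 1 regulator higher. The DESeq2 test called 2 glycolysis rows, 4 hypoxia genes and 2 other carriers higher and 2 pyruvate genes lower, limma-voom 1 other carrier higher and 2 pyruvate genes lower, and the replicate block 2 glycolysis rows and 1 other carrier higher. At least 5 CPM in 4 libraries left 4 hypoxia genes, 1 other carrier, 1 proton and bicarbonate transport gene and 0 pyruvate genes higher, and 2 regulators and 0 pyruvate genes lower; no filter left 0 pyruvate genes lower and DESeq2 size factors 1 other carrier higher. Leaving out 1 library gave 3809 to 6829 rows called in place of 5513, with 2041 to 3420 higher and 1768 (without knockout replicate 3) to 3409 (without knockout replicate 1) lower. It gave 3 to 5 of the 9 genes called, 9 to 13 list genes higher and 8 (without knockout replicate 2) to 23 (without knockout replicate 1) lower. The log2 fold changes then ranged over -5.46 to -5.09 (Slc16a3), -0.78 to -0.51 (Slc16a1), -1.17 to -0.92 (Slc16a6), -0.64 to -0.30 (Bsg) and -1.71 to -1.06 (Ldha), and the Slc16a3 to Slc16a1 ratio over 0.00790 to 0.00908 in the knockout libraries and 0.198 to 0.215 in WT. With the longest transcript as the length, chosen after seeing the data, levels per kb were 12.4 for Slc16a3 in WT, 259.9 for Bsg in WT, and 502 and 1188 for Ldha in knockout and WT. Libraries of the same number did not deviate together (correlations -0.0445 to 0.000203 over 4 pairs). With 4 libraries per genotype this cannot show whether the numbers pair the libraries, and the labels do not say. The replicate block gave 4683 calls. The causes of these shifts were not tested.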
